A study of Gallus gallus with 88 samples.

Results

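The heat shock and DnaJ chaperone genes are the genes whose proteins fold, refold and hold other proteins, together with the transcription factors that switch on the heat shock response. They were chosen by name: a probe set had to carry exactly 1 gene symbol that starts with HSPA, HSP90, DNAJA, DNAJB, DNAJC or CCT2 to CCT8, that is HSPB with a number, or that is HSPD1, HSPE1, HSPH1, HSF1, HSF2, HSF3 or TCP1. This gave 62 genes of 11528 with a single symbol on the array. Where a gene had several probe sets, as 5 genes did, the probe set with the highest mean stood for it. The 62 were 7 small heat shock genes (HSPB), 10 of the HSP70 class (HSPA genes and HSPH1), 2 of the HSP90 class, 6 subunits of the cytosolic chaperonin TRiC (CCT genes and TCP1), HSPD1 of the mitochondrial chaperonin, 2 DNAJA, 9 DNAJB and 23 DNAJC genes, and 2 heat shock factors. HSP90AA1, HSPE1, DNAJB1 and HSF1 were matched by no such probe set and were not analysed here. No filter on low values was used, so all 62 were tested in every comparison.

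The samples were pieces of the Musculus pectoralis major, the large breast muscle, from broiler chickens, 1 Affymetrix 1-colour array per animal and 88 arrays in all. Every egg was incubated at 37.8 °C outside its treatment interval, and treated eggs were held at 38.8 °C (warm) or 36.8 °C (cool) within it. Embryos treated on embryonic days 7 to 10 were sampled on day 10, and those treated on days 10 to 13 were sampled on day 13, with 8 warm, 8 control and 8 cool embryos at each age. Birds sampled on post-hatch day 35, which were raised in a barn on a standard diet, came from either interval, with 8 birds for each interval and temperature and 8 controls kept at 37.8 °C throughout. Of these controls 2 are labelled with the early interval and 6 with the late one, and they were used as 1 control group for both intervals. Both early ones are in listing block 1. The labels give no sex, strain beyond broiler, or egg lot. The series asks how the treated groups differ from the controls of their own age.

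Chaperones work as a relay. HSP70 proteins bind short hydrophobic stretches of unfolded proteins and release them on an ATP cycle, DnaJ proteins (also called HSP40) bring them clients and start that cycle, and HSP110 proteins such as HSPH1, HSPA4 and HSPA4L recharge them with ATP. HSP90 finishes signalling proteins and, in muscle, myosin, TRiC is a closed chamber that folds actin and tubulin, and the small heat shock proteins hold unfolding proteins without ATP and bind the cytoskeleton and the sarcomere. Heat shock factors raise many of these genes when proteins unfold in heat, and birds carry HSF3, which chicken cells use in that response.

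The deposited values are log2 signals, so a difference of 1 is a 2-fold change. A gene is called higher or lower where the adjusted p of limma's moderated test, over all 20706 probe sets, is under 0.05. Median signals were 7.56 to 8.13 on the embryo arrays and 6.32 to 6.76 on the day 35 arrays, so embryos and day 35 birds are set side by side only by rank within an array. Defining muscle genes (12 of 16 listed were measured) had a median percentile of 79.2 in day 10 controls, 95.2 in day 13 controls and 99.3 in day 35 controls. Single markers stood lower: the lowest was at 17.7 in cool day 10 embryos and at 59.3 in day 35 controls. Within an age the warm arrays are listed with 4 of the controls and the cool arrays with the other 4. These listing blocks 1 and 2 may be a technical batch, and the labels do not say what they stand for.

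Between embryonic days 10 and 13 some chaperone genes rose and others fell, as did probe sets over the whole array. Of the 7 small heat shock genes 4 rose at every temperature, as did HSPA2, while the constitutive HSP70 gene HSPA8, HSP90AB1, HSPH1, the endoplasmic reticulum pair HSPA5 and DNAJB11, and part of TRiC fell in some or all groups. In control embryos 6 of the 62 genes were higher on day 13 (9.65% of all probe sets were) and 17 were lower (17.2% of all probe sets). In warm embryos 7 were higher (8.4% of all) and 16 lower (14.4% of all). In cool embryos 12 were higher (14.4% of all) and 8 lower (12.1% of all). The count higher in controls and the count lower in cool embryos were near these shares. Neither is read as particular to chaperone genes. Warm and cool arrays are in different listing blocks, and the part of the blocks in these counts was not tested. The median difference of the 62 genes was -0.11 in controls, -0.10 in warm and -0.01 in cool embryos, beside -0.02, -0.04 and 0.02 over all probe sets.

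The comparisons at the 3 temperatures use different embryos throughout. Called higher in all 3 were 6 genes, namely HSPB1, HSPB2, HSPB3, HSPB8, HSPA2 and DNAJC7, where 5.85% of all probe sets were. Called lower in all 3 were 7 genes, namely HSPA8, HSPA5, HSPH1, HSP90AB1, DNAJB11, DNAJC5 and DNAJC6, where 8.43% of all probe sets were. So 4 of the 7 small heat shock genes, and 3 of the 10 HSP70 class genes beside HSPA2, moved the same way at every temperature.

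**Figure D1:**
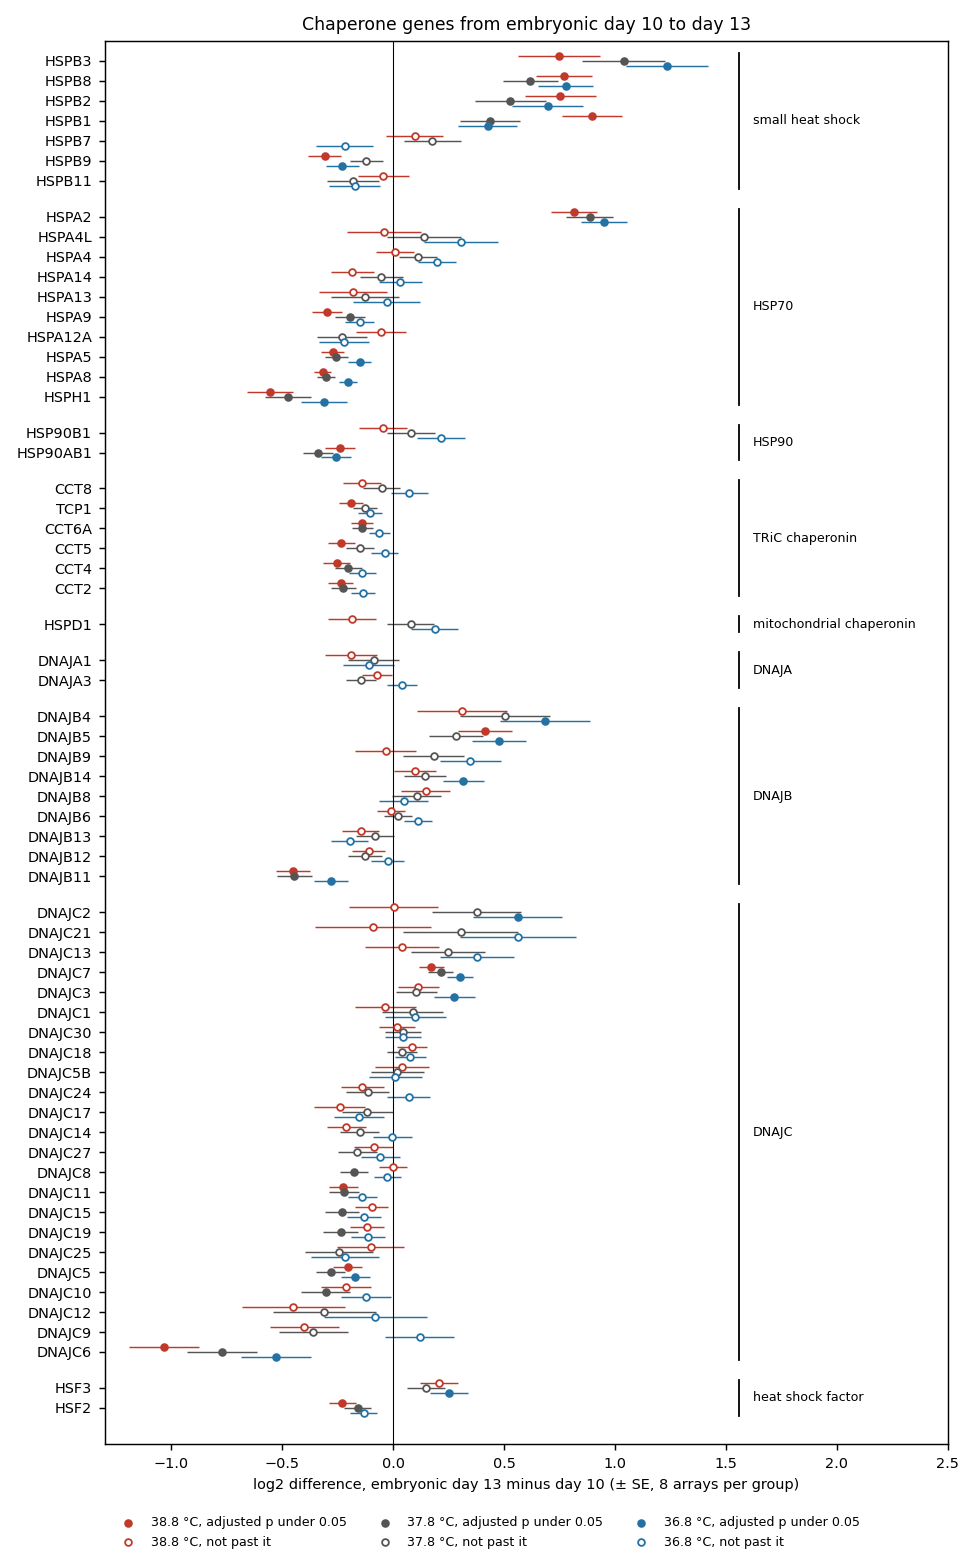
Difference in log2 signal between embryonic day 13 and day 10 for each of the 62 genes, by class, at 38.8 °C (red), 37.8 °C (grey) and 36.8 °C (blue), with SE bars (8 arrays per group) and filled points where the adjusted p was under 0.05. The points of HSPB3, HSPB8, HSPB2, HSPB1 and HSPA2 lie to the right of 0 at all 3 temperatures, and those of HSPA8, HSPA5, HSPH1, DNAJB11 and DNAJC6 to the left.

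Among the small heat shock genes, HSPB3 had the largest rise in control embryos. Its protein forms a complex with that of HSPB2 in mammalian muscle. In control embryos HSPB3 ran from 5.47 to 6.98 with a median of 6.37 on day 10, and from 6.99 to 7.74 with a median of 7.41 on day 13, so the ages did not overlap. The difference was 1.04 ± 0.19 (SE, limma adjusted p = 1.96e-05) in controls, 0.75 ± 0.19 in warm embryos (adjusted p = 0.00204) and 1.24 ± 0.19 in cool embryos (adjusted p = 8.66e-07). HSPB2, the muscle gene next to CRYAB in the genome, ran from 7.37 to 8.59 (median 8.10) on day 10 and from 8.19 to 9.21 (median 8.71) on day 13 in controls. Here the ages overlapped, and the rises of 0.53, 0.75 and 0.70 in control, warm and cool embryos had an SE of 0.16 and adjusted p of 0.0101, 3.36e-04 and 7.35e-04 in limma.

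HSPB8, which works with BAG3 to clear damaged sarcomere proteins, ran from 9.44 to 10.37 (median 9.88) in day 10 controls and from 10.26 to 10.87 (median 10.50) in day 13 controls. It rose by 0.62 ± 0.12 in controls, 0.77 ± 0.12 in warm and 0.78 ± 0.12 in cool embryos, and in cool embryos every day 13 value was above every day 10 value. HSPB1, a widely expressed small heat shock protein that binds actin, ran from 10.03 to 10.87 (median 10.47) in day 10 controls and from 10.43 to 11.23 (median 10.93) in day 13 controls. In warm embryos the same gene went from a range of 9.56 to 10.69 to a range of 10.94 to 11.26, with no overlap. HSPB1 rose by 0.44 ± 0.13 in controls, 0.43 ± 0.13 in cool embryos and 0.90 ± 0.13 in warm embryos (adjusted p = 0.0111, 0.0146 and 1.15e-06 in limma).

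The larger value in warm embryos did not pass the test of the difference between temperatures: the warm effect on HSPB1 differed by 0.46 ± 0.19 between the ages (adjusted p = 1 in limma), and by 0.04 ± 0.20 with the listing block as a term. The other small heat shock genes did not share the rise. HSPB9, a gene of testis in mammals, was lower on day 13 in warm embryos (-0.31 ± 0.07, adjusted p = 0.00139) and in cool embryos (-0.23 ± 0.07, adjusted p = 0.0171), and its difference was -0.12 in controls (adjusted p = 0.241). HSPB7, a heart and muscle protein of the thin filament, had differences of 0.18, 0.10 and -0.22 in control, warm and cool embryos, none past the threshold. HSPB11, now known as a cilium transport protein and not a chaperone, had differences between -0.18 and -0.04 that passed in no group.

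**Figure D2:**
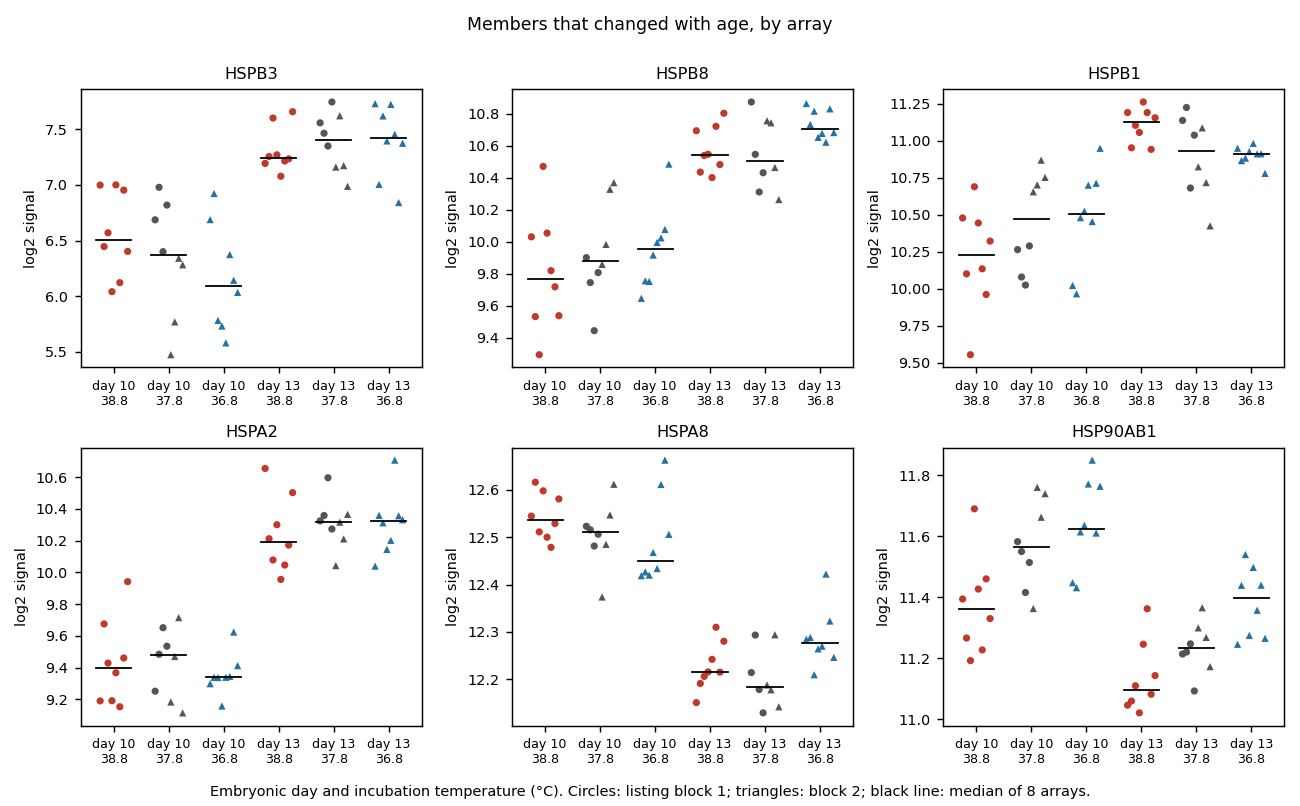
Log2 signal of 6 chaperone genes on each of the 48 embryo arrays by embryonic day and incubation temperature, with listing block 1 as circles, block 2 as triangles and the median of 8 arrays as a line. HSPA2 and HSPA8 do not overlap between the ages in control embryos, one rising and the other falling. In warm embryos HSPB1 spreads more widely on day 10 than on day 13.

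In the HSP70 class 1 gene rose and the rest fell or did not pass. HSPA2, a gene of testis and muscle in mammals, ran from 9.11 to 9.71 (median 9.48) in day 10 controls and from 10.04 to 10.60 (median 10.32) in day 13 controls. At none of the 3 temperatures did its ages overlap. It rose by 0.88 ± 0.10 in controls, 0.81 ± 0.10 in warm and 0.95 ± 0.10 in cool embryos (adjusted p = 4.18e-09, 4.18e-08 and 6.71e-10 in limma). HSPA8, the constitutive cytosolic HSP70 and among the brightest probe sets, ran from 12.37 to 12.61 (median 12.51) in day 10 controls and from 12.13 to 12.29 (median 12.18) in day 13 controls. It fell by 0.30 on the log2 scale in controls, by 0.32 in warm and by 0.20 in cool embryos, each with an SE of 0.04 (adjusted p = 5.85e-08, 2.75e-08 and 8.17e-05 in limma).

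HSPH1, the heat-inducible HSP110, ran from 8.41 to 9.39 (median 9.07) in day 10 controls and from 8.27 to 8.82 (median 8.64) in day 13 controls, with overlap. It fell by 0.47 in controls, 0.55 in warm and 0.31 in cool embryos, with an SE of 0.10 and adjusted p of 3.82e-04, 5.48e-05 and 0.0198 in limma. The call in cool embryos was lost without the day 10 array 60 (-0.27 ± 0.11, adjusted p = 0.0516). HSPA5, the HSP70 of the endoplasmic reticulum, ran from 11.28 to 11.49 (median 11.39) in day 10 controls and from 11.02 to 11.28 (median 11.09) in day 13 controls, and fell by 0.26 ± 0.05 (adjusted p = 1.56e-04). HSPA9, the mitochondrial HSP70, was lower by 0.19 in controls and by 0.30 in warm embryos, and its difference of -0.15 in cool embryos did not pass (adjusted p = 0.0869). Differences of HSPA4, HSPA4L, HSPA12A, HSPA13 and HSPA14 lay between -0.23 and 0.31 over the 3 temperatures, and none passed.

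Of the HSP90 genes, HSP90AB1 alone passed. HSP90AB1, the constitutive cytosolic form, ran from 11.36 to 11.76 (median 11.57) in day 10 controls and from 11.09 to 11.37 (median 11.23) in day 13 controls. It fell by 0.34 in controls, by 0.24 in warm and by 0.26 in cool embryos, with an SE of 0.07 (adjusted p = 1.14e-04, 0.00687 and 0.00312 in limma). HSP90B1, its counterpart in the endoplasmic reticulum, had medians of 12.25 and 12.29 in day 10 and day 13 controls, and its differences of 0.08, -0.05 and 0.22 did not pass.

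The TRiC subunits had small falls. In control embryos all 6 had a negative difference and 3 passed, in warm embryos all 6 were negative and 5 passed, and in cool embryos 5 of 6 were negative and 0 passed (2 had an unadjusted p under 0.05). Over all probe sets 17.2%, 14.4% and 12.1% were called lower in control, warm and cool embryos. CCT2 ran from 11.01 to 11.43 (median 11.31) in day 10 controls and from 10.96 to 11.18 (median 11.07) in day 13 controls, and fell by 0.23 ± 0.06 (limma adjusted p = 0.0017). TCP1, the first subunit to be described, had medians of 11.07 and 10.89 in the same groups, with a difference of -0.13 ± 0.06 that did not pass (adjusted p = 0.0871). HSPD1, the chamber of the mitochondrial chaperonin, had differences of 0.08, -0.19 and 0.19 in control, warm and cool embryos, none past the threshold.

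Most DnaJ genes did not pass, and those that did were spread over cell compartments. DNAJC6, or auxilin, which helps HSPA8 strip clathrin from vesicles, ran from 6.83 to 7.75 (median 7.47) in day 10 controls and from 6.11 to 7.04 (median 6.70) in day 13 controls. It fell by 0.77 in controls, 1.03 in warm and 0.53 in cool embryos, with an SE of 0.16 and adjusted p of 1.63e-04, 1.87e-06 and 0.0101 in limma. DNAJB11, a partner of HSPA5 in the endoplasmic reticulum, ran from 9.29 to 9.80 (median 9.64) in day 10 controls and from 8.94 to 9.33 (median 9.12) in day 13 controls. It fell by 0.44, 0.45 and 0.28 in control, warm and cool embryos, with an SE of 0.08 (adjusted p = 1.19e-05, 1.30e-05 and 0.00505 in limma).

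Of the 9 DNAJB genes only DNAJB11 was called lower, at each of the 3 temperatures. DNAJB5 was called higher in warm (0.41 ± 0.12) and cool embryos (0.48 ± 0.12), and DNAJB4 (0.68 ± 0.20) and DNAJB14 (0.32 ± 0.09) in cool embryos. The second DNAJB5 probe set passed in warm embryos (0.20 ± 0.07) but not in cool ones (0.10 ± 0.07). No other DNAJB14 probe set passed in cool embryos. All cool arrays are in listing block 2, whose day 10 controls were below those of block 1 for DNAJB4, as given below. The part of the blocks in these rises was not tested. Of the 23 DNAJC genes 7 were lower and 1 higher in controls, 3 lower and 1 higher in warm embryos, and 2 lower and 3 higher in cool embryos. Over all probe sets 17.2%, 14.4% and 12.1% were called lower in control, warm and cool embryos, and 9.65%, 8.4% and 14.4% higher. DNAJC7, which shuttles clients between HSP70 and HSP90, was the DNAJC gene called higher at each temperature, by 0.21, 0.17 and 0.30 with an SE of 0.06. DNAJC5, a vesicle protein of nerve endings and other secretory cells, was lower by 0.28, 0.21 and 0.17 with an SE of 0.07. Neither DNAJA gene passed at any temperature.

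The heat shock factors took opposite signs. HSF2, a factor more active in development than in heat, was lower on day 13 in controls (-0.16 ± 0.06, adjusted p = 0.0484) and in warm embryos (-0.23 ± 0.06, adjusted p = 0.00472), and its difference in cool embryos was -0.13 (adjusted p = 0.111). HSF3 was higher in cool embryos (0.25 ± 0.09, adjusted p = 0.0255), with differences of 0.15 in controls and 0.21 in warm embryos that did not pass.

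Partners of these chaperones were read from a list of 40 co-chaperones, of which 28 were measured, and a list of 23 genes of endoplasmic reticulum folding and its stress response, of which 17 were measured. From day 10 to day 13, 7 co-chaperones were called higher and 6 lower in controls, 7 higher and 3 lower in warm, and 10 higher and 5 lower in cool embryos. Over all probe sets the shares higher and lower were 9.65% and 17.2% in controls, 8.4% and 14.4% in warm and 14.4% and 12.1% in cool embryos. UNC45B, the chaperone that folds muscle myosin with HSP90, rose by 0.66 ± 0.12 in controls, 0.77 ± 0.12 in warm and 0.84 ± 0.12 in cool embryos. CRYAB, the muscle and lens small heat shock protein, rose by 0.63 ± 0.13 in warm and 0.70 ± 0.13 in cool embryos. Only the largest called rises of a comparison are named, and in controls these were UNC45B and PDCL3 (0.54 ± 0.11). So no control value of CRYAB is given, whether or not it was called there. FKBP4, a steroid receptor partner of HSP90, fell by 0.35, 0.34 and 0.32 with an SE of 0.06.

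Of the endoplasmic reticulum list, 0 of 17 were called higher and 7 lower in controls, 0 higher and 8 lower in warm, and 2 higher and 6 lower in cool embryos, to be read against the same shares of all probe sets (lower 17.2%, 14.4% and 12.1%, higher 9.65%, 8.4% and 14.4%). TXNDC5, a disulfide isomerase, fell by 0.44 ± 0.07 in controls, 0.34 ± 0.07 in warm and 0.31 ± 0.07 in cool embryos. The median difference of that list was -0.20, -0.23 and -0.12, beside -0.02, -0.04 and 0.02 over all probe sets.

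The make-up of the samples also moved with age. Muscle markers summed to a linear signal of 23008 to 29793 on day 10 control arrays and 39149 to 47654 on day 13 control arrays. Of the 12 measured, 11 were called higher and 1 lower in controls, beside 9.65% and 17.2% of all probe sets. The 12 measured cartilage markers of 15 listed went the other way, from 7686 to 17423 on day 10 down to 3522 to 4563 on day 13, and no marker was at 0 throughout. The part of these shifts in the chaperone differences was not tested. In bulk tissue, fewer cells of a type and less RNA per cell cannot be told apart.

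At the end of the treatment interval on day 10 the chaperone genes were not called changed by either temperature. Warm against control gave 0 calls among the 62 genes in limma (0.0% of all probe sets), with 5 genes at an unadjusted p under 0.05 (6.29% of all). Cool against control gave 0 calls (0.0% of all), with 1 gene, DNAJB13, at an unadjusted p under 0.05 (2.36% of all). Warm against cool gave 0 calls (0.0338% of all), with 22 genes at an unadjusted p under 0.05, 19 of them higher in the warm embryos. Of all probe sets 24.4% had such a p in either direction. The split by direction over all probe sets is not given here or below. So no skew of the chaperone genes is read from such counts. Without the cool array 51 the count of calls was 10. The share of all probe sets called in that fit is not given, so the 10 are not read as a result about chaperone genes.

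The smallest p-values of warm against cool on day 10 belonged to HSPA4, HSPD1, HSP90B1 and DNAJA1. HSPA4 ran from 9.97 to 10.43 (median 10.33) in warm, 9.45 to 10.34 (median 10.09) in control and 9.67 to 10.09 (median 9.80) in cool embryos, a warm minus cool difference of 0.44 ± 0.11 (limma adjusted p = 0.0904). HSPD1 ran from 10.69 to 11.61 (median 11) in warm, 9.97 to 10.94 (median 10.76) in control and 10.11 to 10.75 (median 10.55) in cool embryos, a difference of 0.55 ± 0.14 (adjusted p = 0.0904). HSP90B1 had medians of 12.51, 12.25 and 11.93 in the same order, and DNAJA1, a cytosolic HSP70 partner, 10.13, 9.68 and 9.68. In each of the 4 genes the warm and cool groups overlapped.

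These day 10 differences moved with the listing blocks. With the block as a term, so that each treated group was compared with the 4 controls of its own block, the warm minus cool difference became 0.06 ± 0.16 for HSPA4, 0.08 ± 0.21 for HSPD1, -0.03 ± 0.21 for HSP90B1 and 0.19 ± 0.21 for DNAJA1. The controls, which share a temperature, differed between the blocks themselves. Of the 62 genes 10 were called between the 4 control embryos of block 1 and the 4 of block 2 on day 10, where 9.18% of all probe sets were, and 22 did not overlap, where 22.8% of all did not. Of the 10 called, 8 were higher in block 1.

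DNAJB4, a cytosolic DnaJ protein of heart and muscle in mammals, was at 9.23 to 9.43 in the block 1 controls and at 7.62 to 8.55 in the block 2 controls (1.1 ± 0.20, adjusted p = 0.020 in limma). HSPA4L was at 10.84 to 11.02 and at 9.30 to 10.24 in the same order (0.97 ± 0.21). HSP90B1 was at 12.42 to 12.54 and at 11.68 to 12.07 (0.54 ± 0.11). HSPB1 went the other way, at 10.03 to 10.29 in block 1 and 10.66 to 10.87 in block 2 (-0.58 ± 0.10, adjusted p = 0.020). On day 13 no gene was called between the blocks of controls (0.0% of all probe sets), though 13 of 62 did not overlap (11.7% of all), and at day 35 none was called (0.0% of all).

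**Figure D3:**
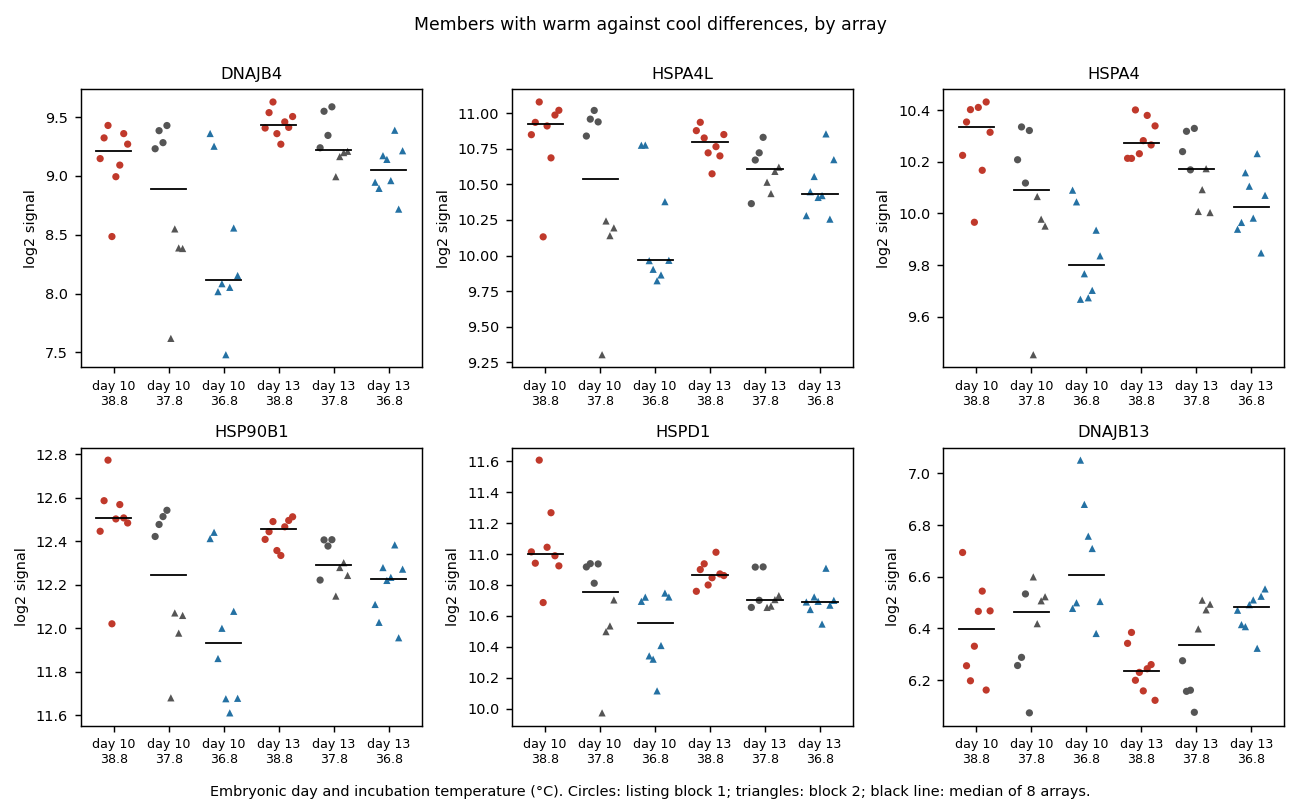
Log2 signal of 6 chaperone genes on each embryo array by embryonic day and incubation temperature, with listing block 1 as circles, block 2 as triangles and the median of 8 arrays as a line. On day 10 the control circles of DNAJB4, HSPA4L and HSP90B1 lie with the warm arrays, and all 4 control triangles lie below the control circles.

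At the end of the later interval, on day 13, warm against control gave 0 calls in limma (0.00483% of all probe sets). At an unadjusted p under 0.05 were 16 genes, 14 of them higher in warm embryos (12.3% of all had such a p, in either direction). The smallest p belonged to DNAJC10, a disulfide reductase of the endoplasmic reticulum. It ran from 9.37 to 9.85 (median 9.57) in warm and from 9.12 to 9.66 (median 9.26) in control embryos, a difference of 0.29 ± 0.07 (adjusted p = 0.187). HSPA12A (0.21 ± 0.06), HSF3 (0.24 ± 0.07) and HSPB7 (-0.28 ± 0.09) followed, with adjusted p of 0.315, 0.315 and 0.335. With the block as a term HSF3 was at 0.07 ± 0.07.

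Cool against control on day 13 also gave 0 calls (0.00483% of all). At an unadjusted p under 0.05 were 17 genes, 14 of them higher in cool embryos (14.2% of all had such a p, in either direction). DNAJC8, a splicing-associated DnaJ protein, ran from 10.03 to 10.29 (median 10.23) in cool and from 9.89 to 10.11 (median 10.03) in control embryos, a difference of 0.19 ± 0.05 (limma adjusted p = 0.0866). HSPB7 ran from 6.34 to 7.05 (median 6.71) in cool and from 6.73 to 7.25 (median 6.99) in control embryos (-0.28 ± 0.09, adjusted p = 0.179). Warm embryos had the same difference of -0.28 against the same controls, and warm minus cool was 0.0034 for HSPB7. Both differences rest on the same 8 controls, so they are not independent. Whether each temperature had an effect of its own was not tested. DNAJA3, a mitochondrial DnaJ protein, was at 0.16 ± 0.05 and DNAJC19, of the mitochondrial import motor, at 0.23 ± 0.08. With the block as a term 7 genes passed, where 4.23% of all probe sets did, among them HSPB7 (-0.43 ± 0.10, adjusted p = 0.0344), DNAJC19 (0.35 ± 0.09, adjusted p = 0.0348) and DNAJC8 (0.20 ± 0.06, adjusted p = 0.0458).

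Warm against cool on day 13 was the embryo temperature comparison with calls. Of the 62 genes 6 were higher in warm embryos (3.54% of all probe sets) and 3 were lower (2.34% of all). Higher in warm embryos were HSP90B1, HSPD1, DNAJB4, DNAJC1 and the HSP110 pair HSPA4 and HSPA4L. Lower in warm embryos were HSP90AB1, DNAJC30 and DNAJB13. So the endoplasmic reticulum and cytosolic HSP90 genes took opposite signs.

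HSP90B1 ran from 12.33 to 12.51 (median 12.46) in warm and from 11.96 to 12.38 (median 12.23) in cool embryos, a difference of 0.25 ± 0.06 (limma adjusted p = 0.0126). HSP90AB1 ran from 11.02 to 11.36 (median 11.10) in warm and from 11.25 to 11.54 (median 11.40) in cool embryos (-0.25 ± 0.06, adjusted p = 0.0134). DNAJB4 ran from 9.27 to 9.63 (median 9.44) in warm and from 8.72 to 9.39 (median 9.05) in cool embryos (0.39 ± 0.09, adjusted p = 0.0145). In all 3 genes the groups overlapped, and the control medians of 12.29, 11.23 and 9.22 lay between those of the treated groups.

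HSPA4 ran from 10.21 to 10.40 (median 10.27) in warm and from 9.85 to 10.23 (median 10.03) in cool embryos (0.25 ± 0.06, limma adjusted p = 0.016). DNAJC1, a membrane partner of HSPA5, ran from 8.84 to 9.14 (median 8.96) in warm and from 8.55 to 8.91 (median 8.63) in cool embryos (0.30 ± 0.07, adjusted p = 0.0173). HSPA4L differed by 0.29 ± 0.08 (adjusted p = 0.0326). DNAJB13, a protein of cilia and sperm tails in mammals, differed by -0.22 ± 0.06 (adjusted p = 0.0398), and DNAJC30, a small mitochondrial DnaJ protein, by -0.26 ± 0.07 (adjusted p = 0.0361). The calls of these last 3 were near the threshold: leaving out 1 array ended that of HSPA4L for 9 of the 16 arrays, that of DNAJC30 for 8 and that of DNAJB13 for 12, with adjusted p up to 0.0791, 0.0805 and 0.0831.

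With the block as a term 1 of the 62 genes passed in this comparison, where 0.135% of all probe sets did. That gene was DNAJB12, a tail-anchored DnaJ protein of the endoplasmic reticulum, at -0.50 ± 0.08 (limma adjusted p = 0.0384), and it was named after its value was seen. Of the 9 genes above, HSPA4 went to 0.06 ± 0.09, HSPD1 to 0.07 ± 0.09, DNAJB4 to 0.10 ± 0.14 and HSP90B1 to 0.14 ± 0.09, and DNAJB13 turned to 0.08 ± 0.08. The others kept more of their size without passing: DNAJC1 at 0.21 ± 0.12, HSPA4L at 0.19 ± 0.14, HSP90AB1 at -0.17 ± 0.10 and DNAJC30, which was larger than before, at -0.33 ± 0.13. The SE also grew in this fit. Without the cool day 13 array 72 the count in this comparison was 5, and with quantile normalization it was 16. The shares of all probe sets in those fits are not given, so neither count is read as particular to chaperone genes. Of the 12 measured cartilage markers 11 were higher in warm embryos, by a median of 0.82 over the 12, and 1 was called. Together they had a summed linear signal of 3623 to 11790 in warm and 3882 to 4170 in cool embryos. With the block as a term all 12 were higher (median 0.48) and 0 were called. Their part in the result was not tested.

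Among the partners, 3 of 28 co-chaperones were called higher and 0 lower in warm against cool embryos on day 13, beside 3.54% and 2.34% of all probe sets. SERPINH1, the collagen chaperone of the endoplasmic reticulum, was higher by 0.27 ± 0.05 (limma adjusted p = 0.00372). Of the endoplasmic reticulum list, PDIA4, a disulfide isomerase, was higher by 0.25 ± 0.05, and ERO1A, the oxidase that recharges such isomerases, was lower (-0.40 ± 0.08). With the block as a term no gene of either list passed in limma, and SERPINH1 was at 0.19 ± 0.08, PDIA4 at 0.23 ± 0.09 and ERO1A at -0.43 ± 0.15. Connective tissue markers moved the same way as SERPINH1 and PDIA4: all 8 measured of 12 listed were higher in warm embryos, by a median of 0.27, and 2 were called. Their summed linear signal was 40072 to 46645 in warm and 33631 to 40665 in cool embryos, and none was at 0 on all arrays. With the block all 8 were still higher (median 0.23) and 0 were called. Their part in the chaperone differences was not tested.

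The warm minus cool differences of the ages come from different embryos. At both ages 14 of the 62 genes had an unadjusted p under 0.05 with the same sign, where 10.2% of all probe sets did. They were HSPA4, HSPA4L, HSP90B1, HSPD1, DNAJA1, DNAJB4, DNAJB14, DNAJC1, DNAJC13, DNAJC24 and HSF3, higher in warm embryos, and HSP90AB1, DNAJB13 and DNAJC30, lower in them. DNAJA1 differed by 0.43 on day 10 and 0.35 on day 13, and HSF3 by 0.27 and 0.22. The listing block separates warm from cool arrays at both ages, so for these 14 the block and the temperature cannot be told apart without the controls.

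The effect of temperature was not called different between the ages for any of the 62 genes. The warm effect gave 0 calls (0.0% of all probe sets) and 2 genes at an unadjusted p under 0.05 (3.88% of all), and the cool effect gave 0 calls (0.0% of all) and 2 such genes (2.95% of all). These 4 were HSPB1 and DNAJC8 for the warm effect and DNAJC9 and HSPB7 for the cool effect.

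At day 35, after 38.8 °C or 36.8 °C in the egg, no chaperone gene was called against the controls in any of the 4 groups. Warm incubation on days 7 to 10 gave 0 calls (0.0% of all probe sets) and 1 gene, CCT8, at an unadjusted p under 0.05 (6.4% of all). Cool incubation on days 7 to 10 gave 0 calls (0.0% of all) and 0 such genes (3.09% of all). Warm incubation on days 10 to 13 likewise gave 0 calls (0.0% of all) and 0 such genes (3.14% of all). Cool incubation on days 10 to 13 gave 0 calls (0.0% of all) and 4 such genes (6.37% of all), namely DNAJB13 (0.36 ± 0.13), DNAJA1 (-0.57 ± 0.21), DNAJC11 (-0.26 ± 0.11) and HSPA9 (-0.30 ± 0.14).

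HSPA8 stood at medians of 11.49 and 11.47 in day 35 birds warmed late and early, 11.60 in controls, and 11.62 and 11.72 in birds cooled late and early. HSPB1 stood at 11.38 in both warm groups, 11.20 in controls and 11.36 and 11.33 in the cool groups. The 4 groups share their controls.

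All 16 warm birds against all 16 cool birds at day 35, which leaves the controls out, gave 1 call among the 62 genes, where 1.94% of all probe sets were called. This was CCT8, a TRiC subunit, at medians of 8.93 and 8.76 in birds warmed early and late and 8.52 and 8.46 in birds cooled early and late. The ranges overlapped, and the difference was 0.35 ± 0.09 (limma adjusted p = 0.0283), or 0.20 ± 0.20 with the block as a term. It lost its call without 1 of the arrays cooled late (0.31 ± 0.08, adjusted p = 0.0561), and also without the warm arrays 13 or 60. In all, 5 of the 62 genes had an unadjusted p under 0.05, each higher in warm birds, where 18.5% of all probe sets had one in either direction. DNAJC2, which sits on ribosomes with HSPA14, was at 0.25 ± 0.09 and HSPB8 at 0.26 ± 0.12 without passing. The 12 muscle markers had 0 calls in this comparison.

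Between embryo and slaughter age the ranks of the genes moved both ways. Among control arrays, 19 of the 62 genes had a higher percentile on every day 35 array than on any day 13 array (16.7% of all probe sets did), and 13 had a lower one (17.4% of all). No test was made of these ranks. Of the 7 small heat shock genes 5 were above and 0 below. HSPB3 stood at a median percentile of 24 on day 10, 41.3 on day 13 and 82.3 at day 35, HSPB1 at 89.8, 93.9 and 97.8, and HSPB8 at 83.9, 90.5 and 96.2.

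HSPB9 and HSPB7, which did not rise in the embryo, stood at 42.7 and 34.2 on day 13 and at 81.7 and 58.6 at day 35. HSPA2 went from 77.2 on day 10 through 88.5 on day 13 to 97.9 at day 35. HSPA8 stood at 99.0, 98.5 and 98.4, so near the top of the scale that the rank could show little change. The folding chambers and HSP90 stood lower at day 35, with 4 of 6 TRiC subunits, both HSP90 genes and HSPD1 below every day 13 array. HSPD1 went from 92.6 on day 13 to 81.8, HSP90AB1 from 95.8 to 89 and CCT5 from 82.6 to 71.8.

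Among the DnaJ genes both DNAJA genes and 4 of 9 DNAJB genes stood higher at day 35, and 1 DNAJB gene, DNAJB11, stood lower, from 72.3 to 60.5. Of the 23 DNAJC genes 5 stood higher and 2 lower. Over all probe sets 16.7% stood above and 17.4% below every day 13 control array. DNAJB5 went from 73.8 on day 13 to 93.8 and DNAJB4 from 74.7 to 92.1. DNAJC6, which fell between embryonic days 10 and 13, stood at 42.4 and 29.2 there and at 60.3 at day 35. Of the heat shock factors, HSF2 went from 85.7 to 79.6 and HSF3 from 62.5 to 71.8. Muscle markers stood higher in rank at day 35. Erythroid markers had a summed linear signal of 12095 to 18459 on day 13 control arrays and 396 to 742 on day 35 control arrays. These sums are not ranks, and the ages may have been normalized apart, so no size of change is read from them. The part of either marker list in these ranks was not tested.

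**Figure D4:**
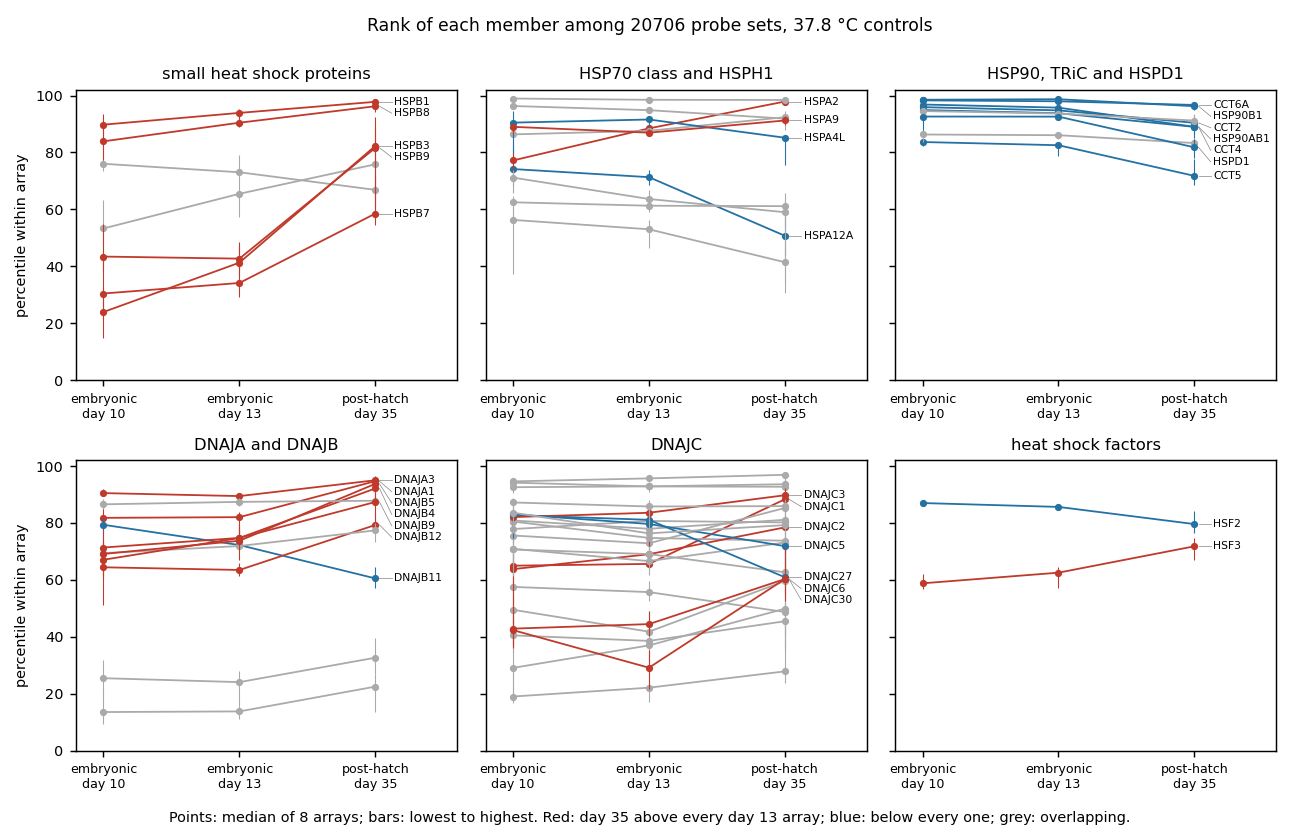
Percentile of each chaperone gene among the 20706 probe sets of an array in control samples of 3 ages, by class, with the median of 8 arrays as a point and the range as a bar. Red genes stand above and blue genes below every day 13 array at day 35, and red prevails among the small heat shock genes (5 of 7) and blue among TRiC, HSP90 and HSPD1.

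Arrays of a group also differed in chromosome W signal. The labels give no sex, but the mean signal of 18 chromosome W probe sets fell into separate low and high sets at each age, at 2.49 to 3.56 and 6.18 to 7.15 at day 35. The high set held 11 of 24 arrays on day 10, 12 of 24 on day 13 and 20 of 40 at day 35. These sets are not groups of the study, and chickens with a W chromosome carry a single Z. By assembly GRCg7b, 5 of the 62 genes lie on chromosome Z: HSPB3, DNAJB5, DNAJC25, DNAJC21 and DNAJA1.

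At day 35, 4 of these 5 genes were called lower in the high set, where 2.83% of all probe sets were called in either direction and 47.1% of the 524 Z probe sets were called lower. HSPB3 ran from 8.26 to 9.80 (median 9.12) in the low set and from 6.42 to 8.73 (median 8.08) in the high set. The difference of -1.16 ± 0.16 (limma adjusted p = 8.64e-07) is a 2.24-fold higher signal in the low set, beside a median difference of -0.37 over all Z probe sets. DNAJB5 ran from 9.83 to 11.10 (median 10.33) and from 8.92 to 10.44 (median 9.74), a difference of -0.73 ± 0.11 (adjusted p = 1.37e-05). DNAJC25 (-0.48 ± 0.10) and DNAJC21 (-0.41 ± 0.11) passed as well, and DNAJA1 missed the threshold at -0.41 ± 0.12 (adjusted p = 0.0536).

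In the embryo HSPB3 showed less of this. Its difference was -0.30 ± 0.18 on day 10 (limma adjusted p = 0.79) and -0.26 ± 0.09 on day 13 (adjusted p = 0.274), and whether it differs between ages was not tested. DNAJA1 and DNAJC25 were the 2 of 5 called on day 10 (1.53% of all probe sets) and again on day 13 (2.61% of all), at -0.38 and -0.42 and then at -0.30 and -0.49. Of the 524 Z probe sets 29.2% were called lower on day 10 and 51.3% on day 13. Of the 57 genes not on Z, 0 were called on day 10, 0 on day 13 and 2 at day 35, namely HSPB7 (-0.87 ± 0.20, adjusted p = 0.00799) and DNAJC7 (-0.20 ± 0.06, adjusted p = 0.0385). Of the 11177 probe sets on numbered chromosomes, 2, 15 and 114 were called on day 10, day 13 and day 35. HSPB7 ran from 6.63 to 9.41 (median 7.82) in the low set and from 5.86 to 8.14 (median 6.95) in the high set.

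**Figure D5:**
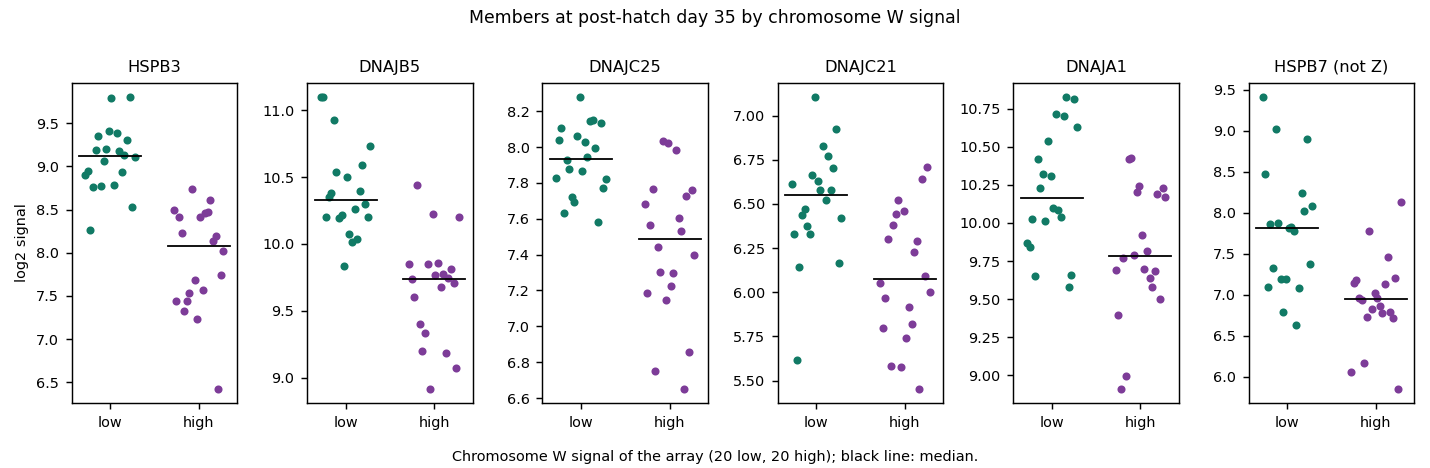
Log2 signal of 6 chaperone genes on the 40 day 35 arrays, split by chromosome W signal (20 arrays low, 20 high), with the median as a line. The first 5 genes lie on chromosome Z, and HSPB3 (medians 9.12 and 8.08) shows the widest separation of the 6 genes.

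HSPB7 and HSPB3 also varied most among birds at day 35. The SD within groups was 0.80 for HSPB7 and 0.79 for HSPB3, beside a median of 0.30 over the 62 genes. On day 13 the same genes had an SD of 0.19 and 0.27, beside a median of 0.14. On day 10 the largest SD belonged to DNAJC21 (0.67), DNAJC12 (0.62), DNAJB4 (0.56) and DNAJC2 (0.54), beside a median of 0.22, and all 4 were among the genes called between the control blocks of that age. The SD within groups takes in the controls of both blocks, so a gap between the blocks widens it. These are not separate observations.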

How the data were processed

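Breast muscle RNA of 88 broiler embryos and birds was hybridised to Affymetrix 1-colour arrays, after extraction with Tri-Reagent, DNase treatment and biotin labelling per the labels' protocols. The scanner software GCOS 1.1.1 is named in the submitters' processing notes. How signals were summarised and normalized is not stated in the sources used. The deposited table holds 1 value for each probe set on each array. The range, from 0 to the mid teens, is why these deposited values are taken as log2 signal. Of 20804 rows, 98 are controls and 20706 were tested. A value of 0, the floor, occurs in 40 to 148 probe sets on day 10 arrays, 50 to 100 on day 13 arrays and 202 to 873 on day 35 arrays. Arrays give no read depth, and their number limits the precision. Replicates are single animals per the series design, and no 2 arrays were identical.

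Gene symbols are those of the platform's annotation, brought up to assembly GRCg7b by Entrez identifier (12300 probe sets with 1 symbol, 256 with several, 8150 with none, 11727 matched by Entrez). Tests used limma 3.58.1 in R 4.3.3 (lmFit, eBayes, 2-sided), with Benjamini-Hochberg adjustment over 20706 probe sets and a threshold of 0.05. Groups of an age share 1 estimate of the spread, and the ages were compared in a fit of all 48 embryo arrays. Errors marked ± are SE of a log2 difference. In simulated data with added changes of 0.5 and 1 on the log2 scale, 64 and 94 percent were recovered for day 13 warm against control, 54 and 86 percent for day 13 against day 10 in controls, and 21 and 71 percent at day 35 for warm incubation on days 7 to 10. The changed probe sets were picked at random from the whole array, and the simulated noise was independent, with no block difference. Each size of change was given to 100 probe sets, far fewer than were called between the ages in the data. So the recovery between the ages need not hold for the data. Alternatives were quantile normalization, leaving out dim probe sets, the listing block or the W signal as a term, a trended robust prior, only the compared groups, the mean of a gene's probe sets, and leaving out each array. The comparison of controls between listing blocks, and the block term for the partner and marker lists, were added after the data were seen.

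The 62 genes, the lists and the rule for naming were chosen with earlier results of these data known. The rule allows every one of the 62 genes, gives array ranges for the 4 called genes with the largest rise and fall in a comparison, for the 4 with the smallest p in a temperature comparison and for a set of well-known chaperones, and names at most 4 genes of a partner list. Sequences are not shown, since no sequence table was used here. Other markers (skin, erythroid, immune, endothelial, connective tissue) were read in the same way as cartilage.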

Additional observations from a re-analysis of the deposited data

Results flagged for a closer look

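Of 451 sets of 8 arrays (41 of the chaperone genes in 11 groups), 39 held an array whose log2 signal stood apart from the other 7, with a gap to the nearest value, as a share of the group's range, over Dixon's 95% critical value. Chance gives about 1 in 20. Each value is given with that of the nearest array.

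Among warm day 10 embryos, array 9 was highest for DNAJC1 (9.57, next 9.07), DNAJC11 (10.06, next 9.80) and HSPA9 (10.79, next 10.52). Array 11 of the same embryos was lowest for DNAJB4 (8.48, next 8.99), HSP90B1 (12.02, next 12.45) and HSPA4L (10.13, next 10.69). Among control day 10 embryos, array 19 was lowest for DNAJC27 (9.30, next 9.76). Control array 63 of that day was lowest for DNAJC1 (7.63, next 8.65), DNAJC10 (8.78, next 9.46), DNAJC2 (7.12, next 8.29), HSF2 (9.79, next 10.10), HSPA4 (9.45, next 9.95), HSPD1 (9.97, next 10.50) and HSPH1 (8.41, next 8.95). Among cool day 10 embryos, array 60 was highest for HSPB11 (9.96, next 9.46). Among warm day 13 embryos, array 29 was lowest for DNAJC2 (8.61, next 8.96). In that group, array 30 was highest for DNAJC11 (9.68, next 9.54), HSF2 (10.18, next 10.01) and HSPA9 (10.38, next 10.21). Among cool day 13 embryos, array 76 was lowest for DNAJC9 (8.84, next 9.63). Among day 35 controls, array 29 was lowest for CCT2 (8.98, next 9.36), DNAJB4 (8.84, next 9.52), DNAJC10 (7.25, next 7.74), HSF3 (7.22, next 7.75), HSPA4 (8.90, next 9.51) and HSPB2 (7.06, next 8.02). Among day 35 birds warmed early, array 3 was lowest for DNAJC6 (6.65, next 6.99). In that group, array 11 was lowest for DNAJB8 (2.11, next 4.54) and DNAJC10 (7.28, next 7.70). Array 66 of these birds was lowest for DNAJB13 (5.22, next 5.63). Array 67 was highest for DNAJC9 (9.43, next 8.65). Array 72 was lowest for HSPB2 (7.06, next 7.83). Among day 35 birds warmed late, array 31 was highest for DNAJC9 (9.17, next 8.59). Among day 35 birds cooled early, array 64 was lowest for DNAJA1 (9.0, next 9.79). Among day 35 birds cooled late, 1 array was highest for HSP90B1 (11.43, next 10.62), HSPA5 (10.72, next 9.92), HSPD1 (9.05, next 8.50) and HSPH1 (8.20, next 7.01). Another array of these was lowest for HSPA12A (5.76, next 6.2).

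The control array 63 of day 10, in listing block 2, was the lowest for 7 of these genes, and the day 35 control array 29 for 6. The array of a late cooled bird at day 35 that was highest for HSPH1 was so too for the endoplasmic reticulum pair HSP90B1 and HSPA5 and for HSPD1.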

How the results depend on the processing

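Under settings other than leaving out an array, 118 of 124 recomputed counts of called genes stayed within 1.5 times the reported count. Many of these counts were 0 in comparisons where few or no probe sets of the whole array passed, so their staying at 0 says little. Of 558 recomputed values of single genes 540 kept their direction and their side of the threshold, 9 lost their call, 6 gained one and 3 reversed. Leaving out 1 array ended the call of CCT8 for 3 arrays, HSPH1 for 1, HSPA4L for 9, DNAJC30 for 8 and DNAJB13 for 12. Counts between embryonic days 10 and 13 stayed within 1.5 times at all 3 temperatures, for example from 14 (only the compared groups) to 30 (quantile normalization) around 20 in cool embryos. The block term could not move these differences between the ages, since each temperature has the same block make-up at both ages. It altered only their spread, so for them that setting, which is among those counted above, is no check on the blocks. With quantile normalization, warm against cool embryos had 2 calls instead of 0 on day 10 and 16 instead of 9 on day 13. With the W signal as a term the day 10 count was 1. With the listing block as a term, cool against control on day 13 had 7 calls instead of 0, warm against cool on day 13 had 1 instead of 9, and warm against cool birds at day 35 had 0 instead of 1. The values that reversed all did so with the block as a term: HSP90B1 on day 10, cool against control (from -0.25 to 0.0229) and warm against cool (from 0.52 to -0.0255), and DNAJB13 in warm against cool on day 13 (from -0.22 to 0.082). The cause was not tested. Leaving out 1 array gave 19 to 26 calls between the ages in controls, 21 to 24 in warm and 16 to 28 in cool embryos, 0 to 10 for warm against cool on day 10, 5 to 11 on day 13, 0 to 1 at day 35, and 0 in each of the other comparisons. Apart from the block term, the shares of all probe sets called in these refits are not given. So a changed count is not read as a result about chaperone genes. No paired analysis was possible because array numbers name single animals and are not shared between the groups of an age. At day 35 the simulated recovery of a change of 0.5 was 21 percent, so small differences may go unseen there.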

Other observations

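Of the 5 genes with several probe sets, CCT4, DNAJB14 and DNAJC27 had means over all arrays more than 1 apart on the log2 scale. The dimmer CCT4 probe set (mean 7.22 against 10.15) had a day 13 minus day 10 difference of 0.07 ± 0.15 in controls, where the brighter one fell by 0.20 on the log2 scale (limma adjusted p = 0.803 and 0.00979). Of the dimmer DNAJB14 probe sets, that with a mean of 7.03 was called higher in warm against cool embryos on day 13 (0.37 ± 0.11, limma adjusted p = 0.042), where the brightest was at 0.15 ± 0.07 and did not pass. Both DNAJC19 probe sets were called lower on day 13 in controls, by -0.24 and -0.22. The DNAJB5 probe sets had means of 9.54 and 9.25. From day 10 to day 13 the dimmer one passed in warm embryos (0.20 ± 0.07, limma adjusted p = 0.0189). In cool embryos it did not (0.10 ± 0.07, limma adjusted p = 0.268), where the brighter one rose by 0.48 ± 0.12.

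ATF4, the transcription factor of the amino acid and unfolded protein response, was the 1 gene of the endoplasmic reticulum list called at day 35 between warm and cool birds. It was lower in warm birds, with means of 10.7 and 11.1 over 16 birds each (-0.45 ± 0.12, limma adjusted p = 0.0327), and with the listing block as a term 0 of the 17 genes of that list passed.

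In warm against cool embryos on day 13, 2 of 8 connective tissue markers were called higher (3.54% of all probe sets were), and all 8 had a positive difference (median 0.27). Of the other marker lists 0 of 7 skin, 0 of 6 erythroid, 0 of 9 immune and 0 of 7 endothelial markers were called. At day 35, warm against cool birds had 1 of 7 skin markers called lower and 0 of 9 immune markers called, though all 9 immune markers had a negative difference (median -0.39). With the listing block as a term 6 of these 9 had a positive one (median 0.20).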
